A study of Mus musculus with 20 samples.

Results

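The genes described here are the proteasome subunits and their relatives by name: every gene whose symbol begins with Psma, Psmb, Psmc, Psmd, Psme, Psmf or Psmg followed by a digit, leaving out the interferon-inducible subunits Psmb8, Psmb9 and Psmb10. The rule used symbols alone and found the same 44 genes among the 13107 of the first experiment and the 11210 of the second. By known role they comprised 7 alpha and 7 beta subunits of the core particle, 6 ATPases and 11 other subunits of the regulatory particle, 5 activators or inhibitors, and 7 assembly chaperones. One gene, Psmc3ip, entered by its symbol only, since its product (Hop2) acts in meiotic recombination and is no part of the proteasome.

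mRNA was sequenced from p19/Nras cells, a murine liver cancer line that lacks p19/Arf and carries Nras, so that these alterations were common to all groups. In the first experiment (Myc experiment, 12 libraries), Trim33-WT cells made with a control guide (sgCtrl) and the CRISPR-made Trim33-KO lines KO1 and KO2 (sgTrim33) carried either the vector pWZL (WT Ctrl, KO1 Ctrl, KO2 Ctrl) or Myc (WT Myc, KO1 Myc, KO2 Myc), with no further treatment. In the second (HU experiment, 8 libraries), sgCtrl and sgTrim33 cells received vehicle (called untreated below) or 1 mM hydroxyurea (HU), which depletes deoxynucleotides, for 4 h. The labels of the HU experiment do not say whether its Trim33-KO cells were KO1 or KO2. Each of the 10 groups had 2 libraries, and nothing in the labels says that these came from separate cultures, so the p-values measure the spread between these libraries, which may be technical. RNA came from whole cultures, in which fewer cells of a kind and less RNA per cell cannot be told apart.

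The proteasome degrades proteins marked with ubiquitin. Its core particle is a barrel of stacked rings, in which alpha subunits form the gate and the beta subunits Psmb5, Psmb6 and Psmb7 carry the chymotrypsin-like, caspase-like and trypsin-like sites. The regulatory particle binds ubiquitin, removes it through Psmd14 (Rpn11), and unfolds the substrate with a ring of the ATPases Psmc1 to Psmc6. Dedicated chaperones build both particles, and when proteasome activity is short the transcription factor Nfe2l1 raises the subunit genes together through antioxidant response elements. Dividing tumor cells depend on this machinery.

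Libraries held 14753177 to 17949430 counts in the Myc experiment and 2315327 to 3082202 in the HU experiment, and the proteasome genes took between 0.4996% and 0.6072% of them. Single libraries held 134 to 7389 counts of a proteasome gene in the Myc experiment and 8 to 1400 in the HU experiment, and all 44 genes passed the filter on low counts. Levels below are TMM-scaled CPM, counts scaled to a common library size. Trim33 mRNA was at 246 and 258 CPM in WT Ctrl and at 123 to 130.4 and 201 to 207 CPM in the KO1 Ctrl and KO2 Ctrl libraries. Under the Myc labels it was at 131 to 155 CPM for WT, 185 to 193 for KO1 and 124 to 125 for KO2. Trim33 mRNA thus went against the labels of the Myc libraries, being lower in WT Myc than in WT Ctrl (log2 fold change −0.82) and higher in KO1 Myc than in WT Myc (0.40), and every direction drawn from these libraries rests on their labels. In the HU experiment it was at 125 to 142 CPM in the 4 WT libraries and at 43.8 to 52.2 in the 4 KO libraries.

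The labels KO1 and KO2 also ran crosswise between the Ctrl and the Myc libraries. Of 307 genes that passed the test and differed at least 4-fold between KO2 Ctrl and KO1 Ctrl, 303 (98.7%) differed in the opposite direction between the libraries labelled KO2 Myc and KO1 Myc, and the log2 differences of all 13107 genes in these separate sets of libraries had a Pearson r of −0.732 (a description across genes). Which label is right cannot be told from these data, so comparisons of a KO Myc group with Ctrl are given both within a label and across the labels, a choice made after seeing the data. Myc mRNA was at 433 and 439 CPM in WT Ctrl and 456 and 458 in the libraries labelled WT Myc, and at 186 to 218 in the 4 KO Ctrl libraries against 459 to 646 in the 4 labelled KO Myc. Of 12 hepatocyte markers the Myc table held 1, Afp, at 30.2 to 33.0 CPM in WT Ctrl and 19.5 to 25.1 under the label WT Myc, and at 0.221 to 8.56 in the 8 KO libraries. The defining hepatocyte gene Alb was not among the genes analysed here. The table of the HU experiment held 2 hepatocyte markers, summing to 13.5 to 29.2 CPM. In the Myc experiment 1 of 5 leukocyte markers was present, at 1.48 to 6.30 CPM, and none of 3 endothelial markers was among the genes analysed here.

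Per kilobase of exon, the core subunit Psmb1 had the highest level in WT Ctrl, at 216 CPM per kb, followed by Psmd8 at 211, Psmb4 at 166 and Psmb7 at 161. The other catalytic subunits were lower, Psmb5 at 72.7 and Psmb6 at 67.2 CPM per kb. Activators and chaperones ranged from 67.3 CPM per kb for Psme3, the activator of nuclear, ubiquitin-independent degradation, down to 6.88 for Psmd9 and 4.79 for the inhibitor Psmf1, the lowest of the 44.

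RefSeq promoters (GRCm38.p6, 250 bases before to 50 after a transcription start) were matched to 37 of the 44 genes. Motifs were searched on both strands in the same window for all 27025 genes of the table. The antioxidant response element core TGACNNNGC stood in 16.2% of the matched proteasome genes and 13.99% of all genes, the E-box CACGTG in 8.11% and 8.09%, and the CCAAT box in 35.1% and 41.1%. The E2f motifs TTTGGCGC or TTTCCCGC stood in 5.41% (Psmc2 and Psmc4) and 1.8%. A match describes letters in a window and nothing about a bound factor. Promoters are printed for members that the comparisons below turn on, with motif matches in capitals and positions counted from the start site. In Psmd14 the CCAAT matches are at −159, 5 and 8, of which those at 5 and 8 overlap.
Psmd8 (chr7:29180624-29180923, minus strand, none of the motifs): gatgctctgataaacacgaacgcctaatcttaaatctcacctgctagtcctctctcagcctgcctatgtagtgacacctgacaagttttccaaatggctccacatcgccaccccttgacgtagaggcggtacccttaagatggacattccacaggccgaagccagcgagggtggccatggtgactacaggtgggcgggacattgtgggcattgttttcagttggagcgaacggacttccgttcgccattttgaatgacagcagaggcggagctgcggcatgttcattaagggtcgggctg
Psmd14 (chr2:61711444-61711743, plus strand, CCAAT on either strand, at positions 5 and 8 overlapping): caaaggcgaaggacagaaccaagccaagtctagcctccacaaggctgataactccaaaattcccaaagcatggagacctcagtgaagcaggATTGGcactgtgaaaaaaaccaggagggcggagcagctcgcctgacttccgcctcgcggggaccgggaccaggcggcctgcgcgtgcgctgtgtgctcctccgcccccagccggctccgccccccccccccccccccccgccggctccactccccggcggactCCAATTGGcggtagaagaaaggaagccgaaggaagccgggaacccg
Psmc6 (chr14:45329574-45329873, plus strand, antioxidant response element core at −227): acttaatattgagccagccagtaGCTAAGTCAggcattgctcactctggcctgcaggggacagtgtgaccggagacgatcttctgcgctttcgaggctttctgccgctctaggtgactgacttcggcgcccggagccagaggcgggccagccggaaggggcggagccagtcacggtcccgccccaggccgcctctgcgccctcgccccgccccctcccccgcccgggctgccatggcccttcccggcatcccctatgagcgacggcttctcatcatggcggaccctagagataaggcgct
Psmc4 (chr7:28050043-28050342, minus strand, TTTCCCGC at −77): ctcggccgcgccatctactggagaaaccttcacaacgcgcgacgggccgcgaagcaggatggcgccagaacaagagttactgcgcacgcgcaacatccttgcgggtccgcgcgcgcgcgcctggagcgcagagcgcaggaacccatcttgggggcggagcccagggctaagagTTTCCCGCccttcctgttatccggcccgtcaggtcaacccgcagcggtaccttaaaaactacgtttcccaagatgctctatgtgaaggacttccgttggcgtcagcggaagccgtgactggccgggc
Psme3 (chr11:101315963-101316262, plus strand, CACGTG at −44 and CCAAT at −14): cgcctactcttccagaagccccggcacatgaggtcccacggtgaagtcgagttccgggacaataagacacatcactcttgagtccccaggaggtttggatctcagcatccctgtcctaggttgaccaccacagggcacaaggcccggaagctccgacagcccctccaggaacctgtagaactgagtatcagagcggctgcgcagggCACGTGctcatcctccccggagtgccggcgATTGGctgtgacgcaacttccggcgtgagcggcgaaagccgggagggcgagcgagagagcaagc
Psmd10 (chrX:140956662-140956961, minus strand, CCAAT at −230, −47 and −24): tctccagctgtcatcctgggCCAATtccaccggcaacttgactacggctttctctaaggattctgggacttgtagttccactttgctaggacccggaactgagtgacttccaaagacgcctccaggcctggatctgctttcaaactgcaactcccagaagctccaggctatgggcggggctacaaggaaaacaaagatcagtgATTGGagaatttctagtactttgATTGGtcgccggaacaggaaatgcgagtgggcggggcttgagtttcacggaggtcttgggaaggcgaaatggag

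To ask what loss of Trim33 did to the proteasome transcripts, KO1 Ctrl and KO2 Ctrl were each compared with the same WT Ctrl libraries. Transcripts of 9 proteasome genes were lower in both KO lines: the ATPases Psmc2, Psmc4 and Psmc6, the regulatory subunits Psmd4, Psmd8 and Psmd14, the catalytic Psmb7, the activator Psme3 and the chaperone Psmg3. Psmd2, a scaffold of the base, and Psmd13, a lid subunit, were higher in both. No gene was called in opposite directions, but both comparisons share the WT Ctrl libraries. The share of all genes lower in both lines, or higher in both, was not computed. In KO1 Ctrl 4 of 44, Psmc3ip among them, were higher and 13 lower (edgeR, adjusted p below 0.01), beside 25.5% and 26.7% of all 13107 genes. The share of lower proteasome genes, 29.5%, was thus near that of all genes, and the share of higher ones, 9.09%, below it. In KO2 Ctrl 4 were higher and 11 lower, beside 23.3% and 26.6% of all genes (upper quartile scaling gave 6 and 8, and DESeq2 gave 2 and 13 in KO1 Ctrl). The median log2 fold change of the 44 genes was −0.10 for KO1 Ctrl and −0.06 for KO2 Ctrl, and over all genes it was −0.0036 and −0.01. Markers of cell identity moved with these groups. The 3 biliary and progenitor markers measured (of 5) summed to a group mean of 2812 CPM in WT Ctrl, 2072 in KO1 Ctrl cells and 1834 in KO2 Ctrl cells, and Krt19 among them was at 396 to 415 CPM in WT Ctrl, 46.8 to 48.6 in KO1 Ctrl cells and 112 to 119 in KO2 Ctrl cells. The 5 mesenchymal markers measured (of 6), mostly Vim, summed to 3004, 3881 and 3220 CPM, with Pdgfrb at 16.3 to 16.9, then 168 to 191, then 98.1 to 106 CPM and Col1a2 at 129 to 131, then 141 to 142, then 14.6 to 17.2 CPM in the same order. The 2 simple epithelial markers measured (of 3) summed to 3818, 3149 and 3353 CPM, and Afp was lower in the KO groups as given above. The part of these shifts in the proteasome results was not tested. Without KO1 Ctrl replicate 2 the number of calls in KO1 Ctrl was 10 in place of 17, and without KO2 Ctrl replicate 1 that in KO2 Ctrl was 9 in place of 15.

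**Figure D1:**
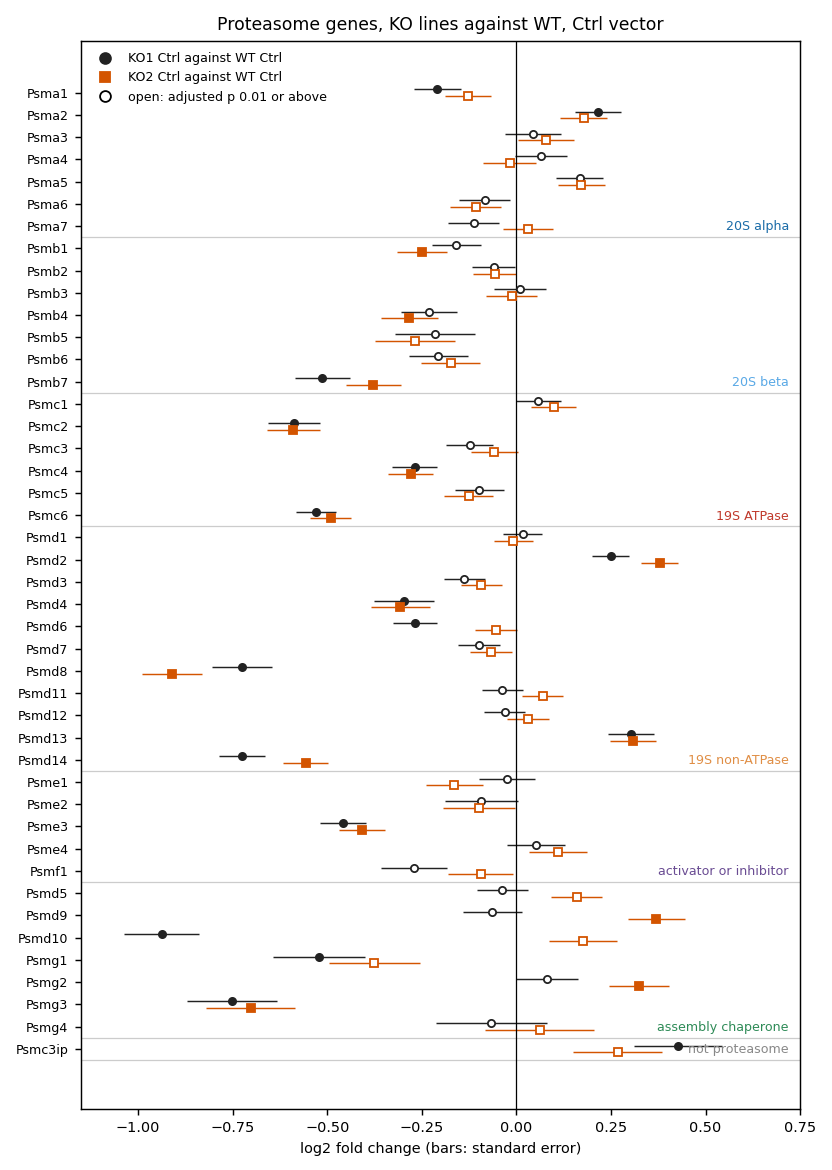
Log2 fold change of each of the 44 genes, by role, in KO1 Ctrl and KO2 Ctrl against the same 2 WT Ctrl libraries, with bars for the standard error and open symbols where adjusted p was 0.01 or above. Psmd8, Psmd14, Psmg3, Psmc2 and Psmc6 lie far below 0 in both lines, Psmd2 and Psmd13 above 0 in both, and Psmd10 lies at −0.94 in KO1 Ctrl and 0.18 in KO2 Ctrl.

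Among the regulatory particle subunits, the largest difference in KO2 Ctrl was in Psmd8 (Rpn12, a lid subunit, mm9 chr7:29959207-29965692). It was at 322 and 316 CPM in WT Ctrl, 188 and 198 in KO1 Ctrl cells and 164 and 174 in KO2 Ctrl cells. All 4 KO libraries were below both WT libraries, with log2 fold changes of −0.72 ± 0.079 (SE, edgeR adjusted p = 6.84e-07) and −0.91 ± 0.0795 (edgeR adjusted p = 5.93e-08). Psmd14, the deubiquitinase (mm9 chr2:61549751-61638433), was at 255 and 259.6 CPM in WT Ctrl, 158 and 153 in KO1 Ctrl cells and 179.6 and 169.98 in KO2 Ctrl cells. The log2 fold changes were −0.72 ± 0.0606 (edgeR adjusted p = 3.02e-08) and −0.56 ± 0.0602 (edgeR adjusted p = 7.06e-07). The groups did not overlap, which held in either direction for 83.9% of all genes in KO1 Ctrl and 82.1% in KO2 Ctrl.

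Psmc2 (Rpt1, mm9 chr5:21291101-21309605) was at 282 and 285 CPM in WT Ctrl, 192 and 186 in KO1 Ctrl cells and 189.6 and 187 in KO2 Ctrl cells. Both lines were at much the same level, with log2 fold changes of −0.59 ± 0.0696 and −0.59 ± 0.0695 (edgeR adjusted p = 1.76e-06 and 1.9e-06). The other ATPases called were Psmc6 (−0.53 and −0.49) and Psmc4 (−0.27 and −0.28), whereas Psmc1, Psmc3 and Psmc5 were not called in either line. Of the 11 non-ATPase subunits 2 were higher and 4 lower in KO1 Ctrl, and 2 higher and 3 lower in KO2 Ctrl. Psmd2 was at 366 and 373 CPM in WT Ctrl, 439 and 439.9 in KO1 Ctrl cells and 480.5 and 481 in KO2 Ctrl cells, above WT in all 4 KO libraries (log2 fold changes 0.25 and 0.38, edgeR adjusted p = 0.000308 and 4.99e-06).

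Fewer core subunits were called. Of 7 alpha subunits, Psma2 was higher and Psma1 lower in KO1 Ctrl and none was called in KO2 Ctrl. Of 7 beta subunits 1 was lower in KO1 Ctrl (Psmb7) and 3 in KO2 Ctrl (Psmb1, Psmb4, Psmb7). Psmb7 was at 199.9 and 192 CPM in WT Ctrl, 139.7 and 135 in KO1 Ctrl cells and 155 and 147 in KO2 Ctrl cells, with no overlap (−0.51 ± 0.0736 and −0.38 ± 0.0732, edgeR adjusted p = 1.41e-05 and 0.000308). The other catalytic subunits did not pass the test. Psmb5 was at 68.96 and 65.01 CPM in WT Ctrl, 59.2 and 56.3 in KO1 Ctrl cells and 56.8 and 54.4 in KO2 Ctrl cells (edgeR adjusted p = 0.0857 and 0.0374). Psmb6 was at 129 and 123, then 112 and 106, then 112 and 111 CPM in the same order (edgeR adjusted p = 0.0296 and 0.064). All 4 KO libraries lay below both WT libraries for these genes as well, beside a lack of overlap in either direction for 83.9% of all genes in KO1 Ctrl and 82.1% in KO2 Ctrl. The 95% intervals of the log2 fold changes were −0.44 to 0.01 and −0.49 to −0.04 for Psmb5.

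Among activators and inhibitors, Psme3 alone was called, at 198 and 199 CPM in WT Ctrl, 147 and 142 in KO1 Ctrl cells and 149.7 and 149 in KO2 Ctrl cells (−0.46 and −0.41, edgeR adjusted p = 5.82e-06 and 2.2e-05). Psme1, of the interferon-inducible activator, was at 66.5 and 62.8, then 62.5 and 64.5, then 58.1 and 57.2 CPM in the same groups, and its partner Psme2 at 21.8 and 21.5, then 19.3 and 21.2, then 19.2 and 21.1. Neither passed the test in either line. Psme4 (the activator PA200) was at 234 and 237, then 248 and 241, then 251 and 257 CPM and did not pass either. Psmf1 was at 31.7 and 30.1 CPM in WT Ctrl, 24.6 and 26.6 in KO1 Ctrl cells and 29.3 and 28.6 in KO2 Ctrl cells (−0.27 and −0.09, edgeR adjusted p = 0.013 and 0.358).

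Of the 7 assembly chaperones 3 were lower in KO1 Ctrl, and in KO2 Ctrl 1 was lower and 2 were higher. Psmg3, a chaperone of the alpha ring, was at 29.96 and 28.3 CPM in WT Ctrl, 17.7 and 16.9 in KO1 Ctrl cells and 18.2 and 17.6 in KO2 Ctrl cells. Both lines were below WT (−0.75 ± 0.118 and −0.70 ± 0.117, edgeR adjusted p = 3.49e-05 and 7.15e-05). Its partner Psmg4 was at 9.89 and 11.1, then 8.92 and 11.1, then 11.8 and 10.1 CPM, with overlapping groups. Psmg1, of the other alpha-ring pair, was at 19.01 and 16.6 CPM in WT Ctrl, 12.6 and 12.2 in KO1 Ctrl cells and 13.1 and 14.4 in KO2 Ctrl cells, and passed in KO1 Ctrl (−0.52) but not in KO2 Ctrl (−0.38). Psmg2 was at 26.2 and 25.9, then 28.8 and 26.4, then 33.8 and 31.5 CPM, and passed in KO2 Ctrl (0.32) but not in KO1 Ctrl (0.08). Between the KO lines themselves neither Psmg1 nor Psmg2 was called.

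KO2 Ctrl and KO1 Ctrl differed in 3 of the 44 genes, all higher in KO2 Ctrl, against 8.33% of all genes higher and 9.96% lower. These were Psmd10, Psmd9 and the lid subunit Psmd6. Psmd10 (gankyrin, a chaperone of the ATPase ring and a known liver oncoprotein, mm9 chrX:137482968-137491267) was at 31.5 and 28.6 CPM in WT Ctrl, 14.8 and 16.6 in KO1 Ctrl cells and 35.3 and 32.6 in KO2 Ctrl cells. KO1 Ctrl lay far below both other groups, and the difference between the lines was 1.11 ± 0.0969 on the log2 scale (edgeR adjusted p = 2.37e-07). Psmd9, an ATPase-ring chaperone, was at 31.3 and 31.4 CPM in WT Ctrl, 30.3 and 29.7 in KO1 Ctrl cells and 42.5 and 38.6 in KO2 Ctrl cells (0.43 ± 0.0747 between the lines, edgeR adjusted p = 0.000333). Psmd6 was at 95.5 and 91.4 CPM in KO1 Ctrl cells and 111 and 105 in KO2 Ctrl cells (0.21). Psmd5, another ATPase-ring chaperone, was at 74.8 and 74.2, then 75.5 and 69.7, then 84.1 and 82.2 CPM and was not called. Fitted on the KO Ctrl groups alone, 10 of the 44 were called between the lines, and without KO2 Ctrl replicate 1 it was 1.

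Psmd10 is the one X-linked gene of the 44, and X-linked genes moved with it. In KO1 Ctrl against WT Ctrl the median log2 fold change of 371 X-linked genes was −0.20, with 40.4% of them lower and 22.1% higher, and in KO2 Ctrl against KO1 Ctrl it was 0.15, with 32.9% higher and 9.7% lower. Ubqln2, another X-linked gene and a shuttle of ubiquitinated proteins to the proteasome, was at 129.9 and 125 CPM in WT Ctrl, 88.3 and 89.2 in KO1 Ctrl cells and 191 and 193 in KO2 Ctrl cells. The part of the chromosome in the difference of Psmd10 was not tested.

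**Figure D2:**
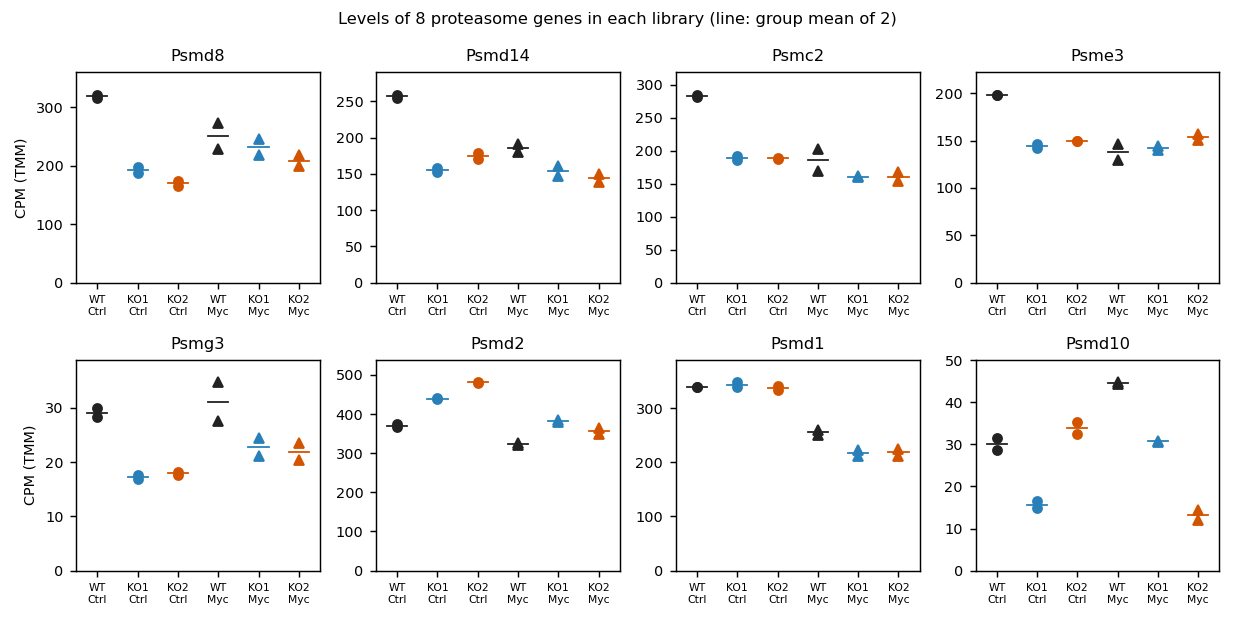
CPM of 8 proteasome genes in each of the 12 libraries of the Myc experiment, 2 per group. Psmd8, Psmd14, Psmc2 and Psme3 are highest in WT Ctrl, Psmd1 is lower in all Myc libraries than in all Ctrl libraries, and Psmd10 is lowest in KO1 Ctrl and in the libraries labelled KO2 Myc.

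For Myc in Trim33-WT cells, the libraries labelled WT Myc were set against WT Ctrl. Myc mRNA itself was not called higher in them (log2 fold change 0.07 ± 0.0548, edgeR adjusted p = 0.31), and Trim33 mRNA was lower, so the comparison is one of libraries by label, and a difference in it is not shown to be an effect of Myc. Biliary and progenitor markers summed to 1386 CPM in WT Myc against 2812 in WT Ctrl (group means), and simple epithelial markers to 2995 against 3818. Mesenchymal markers, mostly Vim, summed to 3231 against 3004. Among them Pdgfrb was higher (39.8 and 41.6 against 16.3 and 16.9 CPM). Col1a1 (18.6 and 21.7 against 29.5 and 29.8) and Col1a2 (119 and 123 against 131 and 129) were lower, and Acta2 was at 0 to 0.342 CPM. The part of these markers was not tested. Of the regulatory particle, 4 of 6 ATPases and 5 of 11 other subunits were lower and none higher. In all, 4 of the 44 were higher and 10 lower, beside 21.6% and 22.7% of all genes, and the median log2 fold change was −0.04 against 0.0069 over all genes. The share of lower genes, 22.7%, was the same as that of all genes. Upper quartile scaling gave 8 higher and 8 lower, and DESeq2 1 and 10. Psmc2 was at 202 and 169.8 CPM in WT Myc against 282 and 285 in WT Ctrl (−0.61 ± 0.0695, edgeR adjusted p = 2.11e-06). Psme3 was at 129.8 and 147 CPM against 198 and 199 (−0.52 ± 0.0604, edgeR adjusted p = 2.5e-06), and Psmd14 at 191 and 181 against 255 and 259.6 (−0.47 ± 0.06, edgeR adjusted p = 7.04e-06). In these genes both WT Myc libraries were below both WT Ctrl libraries. Of all genes, 75.2% did not overlap between these groups in one direction or the other.

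The genes higher in WT Myc were the alpha subunit Psma7 (0.23), the activator subunit Psme1 (83.3 and 71.8 CPM, 0.26) and the chaperones Psmg2 (33.3 and 30.8 CPM, 0.30) and Psmd10 (44.8 and 44.4 CPM, 0.57). The other chaperones did not pass, with Psmg4 at 10.9 and 10.9 CPM and Psmd5 at 88.9 and 80.7. Nor did Psme2 (23.1 and 20.1 CPM), Psme4 (191 and 234 CPM) and Psmf1 (34.1 and 30.4 CPM). The libraries of WT Myc lay further apart than those of any other group, with a chi-square of 11 per gene between them against 2.21 to 4.56 elsewhere. All core subunits except Psmb2 were higher in replicate 1, for example Psmb7 at 211 and 176 CPM and Psmb5 at 77.99 and 60.6. Without WT Myc replicate 2, 19 genes were called in place of 14, and without either one of the WT Ctrl libraries 8. Fitted on these groups alone, 7 were called.

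In the Trim33-KO lines, libraries labelled Myc were compared with Ctrl libraries of the same label. Psmd1, the large scaffold of the base, was lower in both, at 212 and 223 CPM in KO1 Myc against 348 and 338 in KO1 Ctrl (−0.66 ± 0.0529, edgeR adjusted p = 4.7e-08) and at 224 and 212 in KO2 Myc against 342 and 333 in KO2 Ctrl (−0.63 ± 0.0528, edgeR adjusted p = 7.74e-08). With WT Myc at 251 and 259.8 CPM and WT Ctrl at 339.7 and 338, all 6 Myc libraries held less Psmd1 than any of the 6 Ctrl libraries. The share of all genes that separate these libraries in the same way was not computed. In KO1 Myc 5 genes were higher and 8 lower, beside 17.9% and 18.2% of all genes, with a median of −0.07. The higher genes included 4 of the 7 chaperones, among them Psmd10 (30.9 and 30.6 against 14.8 and 16.6 CPM, 0.97), Psmg1 (18.7 and 17.3 against 12.6 and 12.2, 0.54) and Psmg2 (36.3 and 35.4 against 28.8 and 26.4, 0.38). Without KO1 Ctrl replicate 1 the 13 calls became 5, without KO1 Ctrl replicate 2 3, without KO1 Myc replicate 1 7 and without KO1 Myc replicate 2 8.

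In KO2 Myc 1 gene, Psmd8, was higher and 20 were lower, beside 20.2% and 18.6% of all genes. The lower genes were 45.5% of the 44, and the median was −0.19 against 0.02 for all genes. They comprised 8 of 11 non-ATPase subunits, 3 of 6 ATPases, 4 of 7 alpha subunits, 1 of 7 beta subunits, 2 activators and 2 chaperones. Psmd10 was at 12.04 and 14.4 CPM in KO2 Myc against 35.3 and 32.6 in KO2 Ctrl (−1.36 ± 0.0971, edgeR adjusted p = 1.13e-08), Psme2 at 14.4 and 14.3 against 19.2 and 21.1 (−0.49), and Psmd2 at 364 and 349 against 480.5 and 481 (−0.43). In none of these did the groups overlap, as 77.5% of all genes did not in one direction or the other. Without KO2 Ctrl replicate 1 the 21 calls became 11, without KO2 Ctrl replicate 2 10, without KO2 Myc replicate 1 13 and without KO2 Myc replicate 2 11.

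Set across the labels, the same Myc libraries gave other counts. KO1 Myc against KO2 Ctrl had 2 genes higher and 9 lower, beside 15.3% and 14.3% of all genes, and KO2 Myc against KO1 Ctrl 1 higher and 10 lower, beside 13.6% and 15.2%. The medians were −0.12 and −0.14. Psmd1 was again lower, by about as much as within labels (−0.63 and −0.65). Psmd10, at 0.97 in KO1 Myc and −1.36 in KO2 Myc within labels, was at −0.14 ± 0.0874 and −0.24 ± 0.108 across them and was not called (edgeR adjusted p = 0.205 and 0.081). The other chaperones higher in KO1 Myc within labels were Psmg1, Psmg2 and Psmd9. In KO1 Myc against KO2 Ctrl they were at 0.39, 0.14 and −0.09 and were not called (edgeR adjusted p = 0.0135, 0.164 and 0.322). In KO2 Myc against KO1 Ctrl, Psmg2 was called higher (0.30, edgeR adjusted p = 0.00553). X-linked genes moved with Psmd10 within labels, with a median of 0.16 in KO1 Myc and −0.29 in KO2 Myc, where 44.5% of 371 were lower. Ubqln2 was at 151 and 154 CPM in KO1 Myc and at 62.3 and 65.6 in KO2 Myc. Psmd2 was at 379.7 and 386 CPM in KO1 Myc and 364 and 349 in KO2 Myc against 439 to 481 in the 4 KO Ctrl libraries, and Psmd13 at 110.2 and 106, then 106 and 108 against 131 to 135. Both genes and Psmc1 were lower in the libraries labelled KO1 Myc and in those labelled KO2 Myc whichever Ctrl label was used.

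With Myc, Trim33-KO lines were compared with the libraries labelled WT Myc, in which Trim33 mRNA itself went against the labels. In KO1 Myc 2 genes were higher and 13 lower, beside 12.6% and 12.5% of all genes, and in KO2 Myc none was higher and 21 were lower, beside 17.2% and 18% of all genes. The shares of lower proteasome genes were 29.5% and 47.7%, and their medians −0.16 and −0.23 against −0.01 and −0.0038 for all genes. The comparisons share the WT Myc libraries, and 13 genes were lower in both. The share of all genes lower in both was not computed. The catalytic Psmb7 was at 153 and 144 CPM in KO1 Myc and 137 and 144 in KO2 Myc, below 211 and 176 in WT Myc (−0.38 and −0.45, edgeR adjusted p = 0.000732 and 8.87e-05). Psmb5 was at 66.5 and 54.98, then 51.5 and 54.9, then 77.99 and 60.6 CPM in the same order, and passed in KO2 Myc alone (−0.38, edgeR adjusted p = 0.00673), while Psmb6 (114 and 106, then 97.5 and 102, then 130.1 and 107 CPM) passed in neither. The deubiquitinase Psmd14 was at 160.5 and 147, then 139 and 149, then 191 and 181 CPM and lower in both (−0.27 and −0.37).

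Among the chaperones, Psmg3 was at 24.5 and 21.1 CPM in KO1 Myc, 20.3 and 23.5 in KO2 Myc and 34.7 and 27.6 in WT Myc, and was lower in both (−0.45 and −0.50). Psmd10 was lower in KO1 Myc (−0.53) and more so in KO2 Myc (−1.75). Psmg1 was at 14.3 and 15.03 CPM in KO2 Myc against 22.8 and 18.3 (−0.48), and Psmd5 at 73.4 and 69.9 in KO1 Myc and 70.1 and 72.9 in KO2 Myc (−0.24 and −0.24). Psmd9 was at 39.3 and 36.7 CPM in KO1 Myc, 31.6 and 32.5 in KO2 Myc and 29.4 and 28.7 in WT Myc, and was higher in KO1 Myc (0.39), as was the subunit Psmd2 (0.25). Of the activators, Psme1 was at 64.9 and 61.5, then 61.6 and 59.9 CPM in KO1 Myc and KO2 Myc and was lower in both, and Psme2 at 17.3 and 16.9, then 14.4 and 14.3, lower in KO2 Myc (−0.58). Psme3 (139.7 and 144, then 157 and 150.2 CPM), Psme4 (228 and 246, then 213 and 197 CPM), Psmf1 (32.04 and 28.7, then 28.3 and 28.3 CPM), Psmg2 (36.3 and 35.4, then 33.8 and 34.1 CPM) and Psmg4 (12.96 and 11.3, then 9.85 and 12.2 CPM) did not pass in either.

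These counts moved with single libraries. Without WT Myc replicate 2, 28 genes were called in KO1 Myc in place of 15 and 31 in KO2 Myc in place of 21, and without WT Myc replicate 1 they were 7 and 13. Without KO1 Myc replicate 1 or 2 the count in KO1 Myc was 8 and 3, and without KO2 Myc replicate 1 or 2 that in KO2 Myc was 11 and 13. Fitted on the groups compared alone, 1 gene was called in KO1 Myc and 5 in KO2 Myc.

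**Figure D3:**
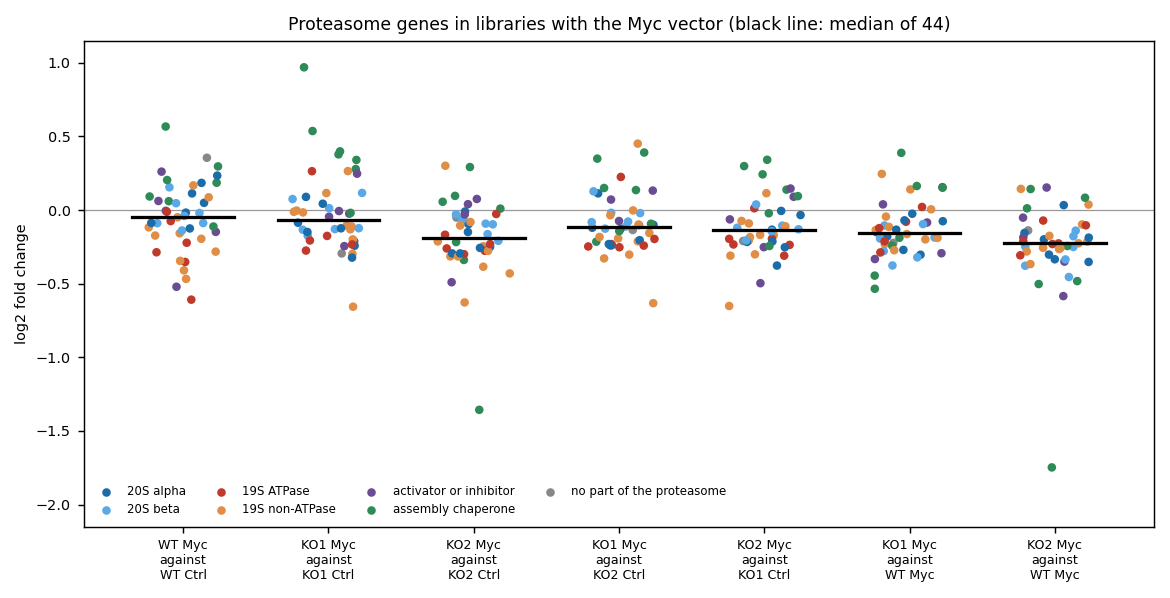
Log2 fold change of each of the 44 genes (points, by role) in 7 comparisons with libraries labelled Myc, with the median of the 44 as a black line. The medians lie between −0.23 and −0.04, and the points furthest from 0 are Psmd10 in KO2 Myc against KO2 Ctrl (−1.36) and against WT Myc (−1.75).

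The difference between Myc-labelled and Ctrl libraries of each KO line was tested against that of WT as an interaction (Myc response), in which both tests share the WT libraries, in which a difference in Myc mRNA was not called. In KO1, 7 genes responded more positively and 2 more negatively than in WT, beside 19.2% and 18.1% of all genes (5 and 5 with upper quartile scaling). In KO2, 3 responded more positively and 6 more negatively, beside 16.6% and 16.2% (2 and 7 with upper quartile scaling). Psmd8, Psme3 and Psmc2 responded more positively in both, by 0.61, 0.50 and 0.38 on the log2 scale in KO1 and 0.65, 0.56 and 0.38 in KO2 (edgeR adjusted p from 0.000162 to 0.00486 in KO1), and Psmd13 more negatively in both (−0.47 and −0.48). Psme3 shows the form of this difference, since it was at 198 and 199 CPM without and 129.8 and 147 with Myc in WT, and at 147 and 142 without and 139.7 and 144 with Myc in KO1. Psmd8 was at 273 and 229 CPM in WT Myc, 245 and 218 in KO1 Myc and 199.7 and 218 in KO2 Myc, closer together than the Ctrl groups.

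Psmc6 (174 and 173 CPM in WT Ctrl, 146 and 139 in WT Myc, 121 and 119 in KO1 Ctrl, 148 and 141 in KO1 Myc) differed in response by 0.55 in KO1. Psmc3ip, the gene outside the proteasome, was at 11.9 and 10.2, then 14.1 and 14.1, then 14.9 and 14.7, then 11.6 and 12.5 CPM in the same groups (−0.65). Across the labels 4 genes responded more positively and 4 more negatively with the KO1 Myc libraries, beside 16.1% and 14.7% of all genes. With the KO2 Myc libraries the counts were 5 and 5, beside 14.8% and 14.6%. Psmd8, Psme3, Psmc2 and Psmd13 kept both sign and call in both. With KO1 Myc, Psmc6 kept its call (0.51), while Psmd14 (0.28), Psmd9 (0.02), Psmd6 (0.06) and Psmc3ip (−0.49) did not pass (edgeR adjusted p = 0.0129, 0.905, 0.578 and 0.0217). Psmd10, at 0.40 and not called within the KO1 label, was called at −0.71 across it, and its KO2 value of −1.92 became −0.81. With KO2 Myc, Psma5 (−0.37) and Psme2 (−0.49) kept their calls, and Psmd5 (−0.21) and Psma7 (−0.24) did not pass. Without WT Myc replicate 2 the calls numbered 15 in KO1 and 17 in KO2, in place of 9 each. Without WT Ctrl replicate 2 they were 5 and 4. Without KO1 Ctrl replicate 2 there were 5 in KO1, and in KO2 there were 4 without KO2 Ctrl replicate 1, 5 without KO2 Ctrl replicate 2 and 5 without KO2 Myc replicate 1.

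Other genes of the pathway were read from lists of control factors, of bound and assembly factors, and of ubiquitin supply and shuttling. Of 13 control factors in the Myc table (of 14 listed), 1 was higher and 7 lower in KO1 Ctrl and likewise in KO2 Ctrl, beside 25.5% of all genes higher and 26.7% lower for the first line, with 23.3% and 26.6% for the second. Their median log2 fold changes were −0.33 and −0.32. Nfe2l1, the factor that raises subunit genes, was at 617 and 606 CPM in WT Ctrl, 297 and 277 in KO1 Ctrl cells and 254 and 265 in KO2 Ctrl cells. It was lower in both lines, with log2 fold changes of −1.09 and −1.24 (edgeR adjusted p = 1.79e-09 and 5.8e-10). Nfe2l2, the related antioxidant factor, was at 433 and 440.3, then 232 and 232, then 227 and 224 CPM (−0.91 and −0.95). In the libraries labelled WT Myc, Nfe2l1 was at 421 and 379 CPM (−0.61 against WT Ctrl). Of the 6 matched members with an antioxidant response element core in the window, Psmc6 was lower in both lines (−0.53 and −0.49), Psmd9 was higher in KO2 Ctrl (0.37) and not called in KO1 Ctrl (−0.06), and Psmb5, Psmb6, Psmd12 and Psme4 were not called in either.

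Of 11 bound and assembly factors measured (of 15), 1 was higher in each line, and 5 were lower in KO1 Ctrl and 6 in KO2 Ctrl, read against the same shares of all genes. Zfand2a, a stress-inducible proteasome adaptor, had log2 fold changes of −1.17 and −1.36, and Akirin2, which aids nuclear import of proteasomes, of −0.74 and −0.82. Of 14 ubiquitin supply and shuttling genes (of 15), 2 were higher and 5 lower in KO1 Ctrl, whereas KO2 Ctrl had 3 higher and 4 lower, read against those shares too. Ubb, which encodes polyubiquitin, was at 2798 and 2719 CPM in WT Ctrl, 1926 and 1937 in KO1 Ctrl cells and 1658 and 1624 in KO2 Ctrl cells and was lower in both (log2 fold changes −0.51 and −0.75, edgeR adjusted p = 1.15e-06 and 1.76e-08). The immunoproteasome subunit Psmb10, measured alone of its 3 genes, was at 11.6 and 9.43 CPM in WT Ctrl, 16.3 and 16.04 in KO1 Ctrl cells and 15.4 and 13.5 in KO2 Ctrl cells (0.62 and 0.46, edgeR adjusted p = 0.000486 and 0.00596), and at 22.3 and 18.3 in WT Myc (0.95, edgeR adjusted p = 8.02e-06).

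In the libraries labelled WT Myc, no control factor was higher and 5 of 13 were lower than in WT Ctrl, and of the bound and assembly factors none was higher and 5 of 11 lower, beside 21.6% and 22.7% of all genes. Of 14 ubiquitin supply and shuttling genes 2 were higher and 7 lower, read against the same shares. Within labels, 4 control factors were higher and 2 lower in KO1 Myc than in KO1 Ctrl, beside 17.9% and 18.2% of all genes. In KO2 Myc against KO2 Ctrl the counts were 1 and 1, beside 20.2% and 18.6%. In the interaction with KO1, 7 of 13 control factors responded more positively than in WT and 1 more negatively (median 0.435), beside 19.2% and 18.1% of all genes, and with KO2 4 and 1 (median 0.12), beside 16.6% and 16.2%. These values rest on the labels of the Myc libraries and were not computed across them.

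In the HU experiment, Trim33-KO and Trim33-WT cells were compared without and with HU. Untreated, 5 of 44 genes were higher in KO (Psmd8, Psmb2, Psmb7, Psmc4, Psma7) and 2 lower (Psmg1, Psmc1), beside 6.29% and 5.74% of all 11210 genes (edgeR, adjusted p below 0.05), with a median of 0.05. Upper quartile scaling gave 4 and 3. Markers moved with the groups here too. The 3 mesenchymal markers measured (of 6), mostly Vim, summed to a group mean of 2765 CPM in untreated WT and 3239 in untreated KO. Col1a1 (5.14 and 7.52 against 0.813 and 1.34 CPM) and Pdgfrb (12.9 and 16.5 against 10.6 and 4.68) were lower in KO. The 2 simple epithelial markers (of 3) summed to 2168 and 2634, and the 3 biliary and progenitor markers (of 5) to 533 and 528. Of the latter, Krt19 was higher in KO (132 and 174 against 241 and 253 CPM). Spp1 (343 and 368 against 258 and 269) and Sox9 (23.1 and 27.1 against 20.3 and 15.4) were lower. The part of these markers was not tested. Psmd8 was at 94.2 and 105 CPM in WT and 161 and 194 in KO, with no overlap (0.84 ± 0.131, edgeR adjusted p = 3.02e-06). The core subunit Psmb2 was at 76.7 and 66.2 CPM against 95.9 and 116 (0.58, edgeR adjusted p = 0.00753), and Psmb7 at 123 and 136 against 177 and 177 (0.45 ± 0.128, edgeR adjusted p = 0.0136). The chaperone Psmg1 was at 23.1 and 38.3 CPM in WT and 14.6 and 17.7 in KO (−0.93 ± 0.291, edgeR adjusted p = 0.0262). The groups did not overlap in any of these genes, as in 50.1% of all genes. Psmb5 was at 90.4 and 103 CPM in WT and 67.5 and 87.2 in KO, and Psmd10 at 39.8 and 38.3 against 22.8 and 28.7, and neither passed the test (edgeR adjusted p = 0.198 and 0.103). Psmb6 (119 and 128 against 136 and 151 CPM) and Psmd14 (140.1 and 150.4 against 168 and 137 CPM) did not pass either. Without WT untreated replicate 1 or KO untreated replicate 2 the count was 3 in place of 7, and DESeq2 called 4.

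**Figure D4:**
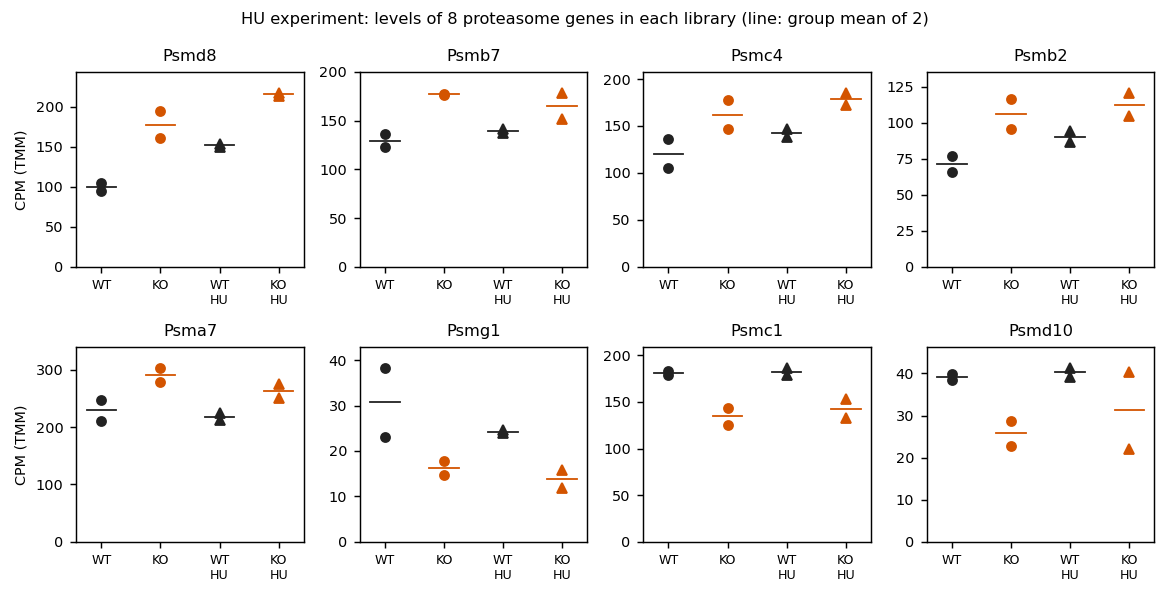
CPM of 8 proteasome genes in each of the 8 libraries of the HU experiment, 2 per group. Psmd8 is higher in KO than in WT libraries of the same treatment and higher with HU than without in both, whereas Psmg1 is lower in KO.

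With HU, 4 genes were higher in KO than in WT (Psmd8, Psma5, Psma1, Psmc3) and 1 lower (Psma6), beside 5.75% and 5.25% of all genes, and upper quartile scaling gave 3 and 3. Psmd8 was at 150.5 and 153 CPM in WT HU and 218 and 214 in KO HU (0.51 ± 0.123, edgeR adjusted p = 0.00302), and it was the one gene called both with and without HU. The alpha subunits Psma5 and Psma1 were at 66.8 and 80.00 CPM against 103 and 98.8 (0.46) and at 139 and 158 against 175 and 216 (0.39). The ATPase Psmc3 was at 124 and 150.3 CPM against 181 and 182 (0.41). In each of these genes both KO libraries were above both WT libraries, as 55.4% of all genes did not overlap in one direction or the other. The catalytic subunits were at 81.8 and 72.4 CPM in WT HU and 72.8 and 77.4 in KO HU for Psmb5, 131 and 125, then 135 and 154 for Psmb6 and 141 and 138, then 152 and 179 for Psmb7, and none of them passed. Psmd14, at 124 and 138 CPM in WT HU and 151 and 149 in KO HU, did not pass either. No gene was called without WT HU replicate 1, 3 without KO HU replicate 1, 2 without WT HU replicate 2 and 1 without KO HU replicate 2, and DESeq2 called 1, a higher one. Fitted on these groups alone 13 were called, and 8 with the replicate number as a block.

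Proteasome genes differed between KO and WT of the HU experiment in step with the chromosome they lie on. Across the 44 genes, the log2 fold change and the median of the other genes on the same chromosome had a Pearson r of 0.676 and a Spearman rho of 0.798 untreated, and 0.696 and 0.71 with HU (descriptions over 44 genes that share libraries and, in part, chromosomes). All 4 genes on chromosome 7 (Psmd8, Psmc4, Psmd13, Psma1) had positive values untreated, 0.22 to 0.84, where the median of 702 genes of that chromosome was 0.29. All 3 on chromosome 12 (Psma3, Psma6, Psmc1) had negative values, −0.43 to −0.36, where the median of 327 genes was −0.37. All 6 on chromosome 2 had positive values, with a chromosome median of 0.17. After subtraction of the chromosome median, Psmd8 was at 0.54, Psmc4 at 0.135 and Psmc1 at −0.06. In KO1 Ctrl and KO2 Ctrl against WT Ctrl the same r was 0.292 and 0.228, and in KO2 Ctrl against KO1 Ctrl 0.535. The 6 genes on chromosome 2, among them Psmd14 and Psmb7, were all negative in KO1 Ctrl, where that chromosome's median was −0.25. The part of chromosome-wide differences in these results was not tested.

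**Figure D5:**
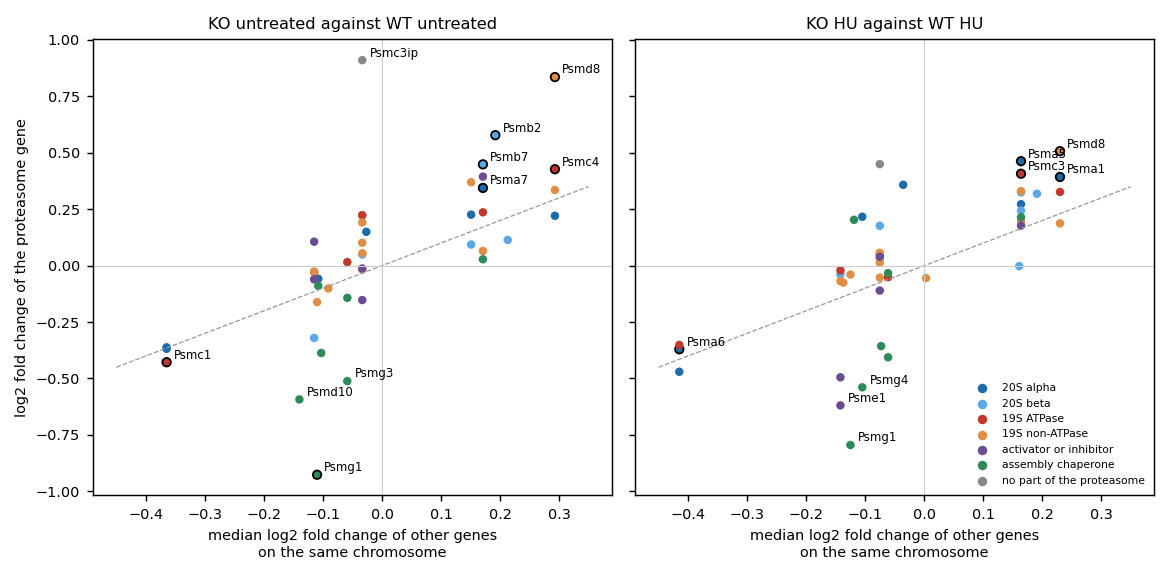
Log2 fold change of each of the 44 genes in KO against WT (vertical) over the median of the other genes on the same chromosome (horizontal), untreated (left) and with HU (right), with called genes outlined in black and a dashed line of equal values. Points rise from lower left to upper right (r 0.676 and 0.696).

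Few proteasome genes were called with HU at 4 h, and small changes may not have been detectable with 2 libraries per group at this depth. In WT, Psmd8 was higher with HU, at 150.5 and 153 CPM against 94.2 and 105 (0.61 ± 0.132, edgeR adjusted p = 0.000642), and no other gene was called, beside 6.39% of all genes higher and 3.44% lower. Upper quartile scaling gave 1 higher and 2 lower, and RLE scaling 1 and 1. Without WT untreated replicate 1, or without replicate 2, 2 genes were called, and 3 with the replicate number as a block. In KO 0 of 44 were called by edgeR, beside 4.65% of all genes higher and 1.8% lower, while 2 were below an unadjusted p of 0.05 (Psmd8 at 0.28 and Psmd13 at −0.43), DESeq2 called 0, and 1 was called without KO HU replicate 2 or with the block. The difference between the HU responses of KO and WT was −0.33 for Psmd8, with a 95% interval from −0.69 to 0.03. In this interaction 0 of 44 were called by edgeR or by DESeq2, beside 0.0446% of all genes higher and 0.0268% lower, and 0 were below an unadjusted p of 0.05.

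Activators and chaperones had few counts in the HU experiment, where changes of the size seen in the Myc experiment may not be detectable at this depth. Psme1 was at 20.1 and 21.4 CPM in untreated WT, 22.8 and 22.1 in untreated KO, 26.1 and 30.5 in WT HU and 15.2 and 21.7 in KO HU, and Psme2 at 12.9 and 7.89, then 9.35 and 10.4, then 6.36 and 8.31, then 7.07 and 3.16 in the same order. Psmf1, the inhibitor, was at 26.6 and 22.6, then 30.9 and 33.4, then 31.2 and 33.9, then 30.4 and 43.5 CPM in that order. The other activators were more abundant, with Psme3 at 166 and 177, then 176 and 165, then 168 and 181, then 156 and 168 CPM and Psme4 at 211 and 179, then 185 and 166, then 151 and 160.01, then 170.4 and 149. None of these 5 genes was called in any comparison of the HU experiment.

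Of the alpha-ring chaperones, Psmg1 had the pattern given above and was at 23.9 and 24.6 CPM in WT HU and 15.9 and 11.9 in KO HU, where it was not called (−0.79 ± 0.299, edgeR adjusted p = 0.0734). Its partner Psmg2 was at 35.98 and 40.98 CPM in untreated WT, 24.8 and 33.7 in untreated KO, 31.8 and 21.1 in WT HU and 30.8 and 30.4 in KO HU. Psmg3 was at 33.8 and 25.6, then 21.1 and 20.4, then 29.9 and 27.02, then 20.5 and 22.5 CPM and Psmg4 at 8.57 and 9.77, then 8.94 and 8.35, then 7.64 and 16.6, then 5.66 and 11.1 in the same order. The ATPase-ring chaperones were likewise not called, with Psmd5 at 89.96 and 89.8, then 94.3 and 89.2, then 83.4 and 74.1, then 80.6 and 103 CPM, Psmd9 at 35.6 and 53.4, then 39.8 and 41.1, then 46.5 and 42.9, then 42.4 and 45.05, and Psmd10 at 41.4 and 39.1 in WT HU and 40.3 and 22.1 in KO HU. Of these 7 chaperones Psmg1 in untreated KO was the one call in the HU experiment.

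Of 13 control factors 3 were higher and none lower in WT HU, beside 6.39% and 3.44% of all genes, among them Nfe2l1, at 336 and 349 CPM against 222 and 207 (0.68, edgeR adjusted p = 4.82e-06). In KO HU 1 was higher and none lower, beside 4.65% and 1.8% of all genes, and the medians of the list were 0.28 in WT and 0.22 in KO. Of 11 bound and assembly factors 1 was higher with HU in WT and in KO, and of 14 ubiquitin supply and shuttling genes 2 were lower in WT and 1 in KO. These counts are read against the same shares of all genes. Between KO and WT, 1 control factor was lower untreated and 2 with HU, and of the ubiquitin genes 1 was higher and 1 lower untreated. Of all genes, 6.29% were higher and 5.74% lower untreated, and 5.75% and 5.25% with HU. No gene of the lists was called in the interaction.

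KO against WT could be set side by side between the experiments, which share no libraries. Of the genes called in both, 3 went opposite ways in untreated KO of the HU experiment and in each of KO1 Ctrl and KO2 Ctrl, namely Psmd8 (0.84 against −0.72 and −0.91), Psmb7 (0.45 against −0.51 and −0.38) and Psmc4 (0.43 against −0.27 and −0.28). Psmg1 was lower in untreated KO (−0.93) and in KO1 Ctrl (−0.52). Over the 44 genes the log2 fold changes had a Pearson r of 0.186 with KO1 Ctrl and −0.101 with KO2 Ctrl, and 19 and 17 genes had the same sign. The share of all genes called in opposite ways, and these values over all genes, were not computed. Whether the opposite directions are particular to proteasome genes thus cannot be told. The experiments were normalized separately and differed in depth, and Psmd8 in WT was at 322 and 316 CPM in the one and 94.2 and 105 in the other.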

How the data were processed

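Per the labels, RNA from whole p19/Nras cultures was extracted with TRIzol and libraries were made with the NEBNext Ultra II RNA kit, whereas the study's methods name the RNeasy and NEBNext Ultra RNA kits. The authors aligned reads to mm9. The submitters' processing notes name STAR 2.5.4, bcl2fastq 2.20, FastQC 0.11.5 and edgeR 3.26.8. How strand and multi-mapping reads were counted is not given in the sources used here, so genes that overlap others or share reads with pseudogene copies are uncertain. The deposited values of both experiments are whole-number counts per gene in 20 libraries with 2 per group. The table of the Myc experiment is named as normalized, but its values are whole and its library totals unequal (14753177 to 17949430), so they were taken as counts. If they are rounded normalized values, its p-values are less certain. In the HU experiment 71.9% of counts from 1 to 50 were even, against 48.4% in the Myc experiment.

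Counts were analysed in R 4.3.3 with edgeR 4.0.16 (TMM, filterByExpr, quasi-likelihood F-test, all libraries of an experiment in the fit) and Benjamini-Hochberg adjustment over all genes, at 0.01 in the Myc and 0.05 in the HU experiment. Intervals are 95%. Chromosomes, positions and exon lengths came from GENCODE vM1 (mm9), and 10743 of 13107 and 9484 of 11210 genes had a chromosome. Alternatives used DESeq2 1.42.0, other scalings and filters, a replicate block, the groups alone and leaving out each library. Plots used matplotlib 3.10.9. In simulated counts, 200 genes per comparison were changed by 1 on the log2 scale. Of these, 91.5% were recovered for KO1 Ctrl against WT Ctrl (12828 genes) and 65% for WT HU against WT untreated (11019 genes). In the data 0 of the 44 genes differed by that much in either comparison, and recovery of smaller changes was not simulated. The replicate numbers did not pair the libraries (deviation correlations −0.148 to 0.192 in the Myc and −0.0136 to 0.051 in the HU experiment).

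The members and lists were chosen with earlier results of these data known. Every member could be named. Values per library are given for the 4 called members with the largest change in each comparison and for fixed members (Psmb5 to Psmb7, Psmd14, Psme1 to Psme4, Psmf1 and the 7 assembly chaperones). Of genes outside the 44, Trim33 and Myc served as checks, and Nfe2l1, Nfe2l2 and the called genes with the largest change stand for the pathway lists. Ubqln2 and Psmb10 were chosen after their values were seen. Of the pathway lists, some genes and comparisons are not reported here.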

Additional observations from a re-analysis of the deposited data

Results flagged for a closer look

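The difference between Myc-labelled and Ctrl libraries (the response below) was not the same in Trim33-KO and Trim33-WT cells for the following genes. It was tested as an interaction with edgeR, with values on the log2 scale. Myc mRNA was not called higher in WT Myc than in WT Ctrl, so these differences are not shown to be effects of Myc. In KO1 the response was more positive for Psmd8 (0.61), Psmc6 (0.55), Psme3 (0.50), Psmd14 (0.45), Psmd9 (0.45), Psmc2 (0.38) and Psmd6 (0.27), and more negative for Psmc3ip (−0.65) and Psmd13 (−0.47). In KO2 it was more positive for Psmd8 (0.65), Psme3 (0.56) and Psmc2 (0.38), and more negative for Psmd10 (−1.92), Psme2 (−0.49), Psmd13 (−0.48), Psmd5 (−0.40), Psma7 (−0.38) and Psma5 (−0.37). Both tests share the WT libraries and rest on the labels of the Myc libraries. Set across the KO labels, Psmd14 (0.28), Psmd9 (0.0186), Psmd6 (0.0592) and Psmc3ip (−0.49) in KO1 and Psmd5 (−0.21) and Psma7 (−0.24) in KO2 were not called, and Psmd10 was at −0.81 in KO2.

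In the HU experiment untreated KO was above WT in Psmd8 (0.84), Psmb7 (0.45) and Psmc4 (0.43), all 3 of which were lower in KO1 Ctrl and KO2 Ctrl. The difference between the experiments was not tested, and the share of all genes with such opposite calls was not computed.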

How the results depend on the processing

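The 150 called results of single genes were followed through the other settings, which gave 1735 values. Of these values none reversed, 1387 stayed past the threshold and 348 fell short of it. The setting without a filter could not differ from the main fit, since the filter removed 0 genes. Counts of called genes moved by over 1.5 times as follows, and the cause was not tested except where fewer samples were fitted. Fitted on the groups alone, 10 genes were called between KO2 Ctrl and KO1 Ctrl, 7 in WT Myc against WT Ctrl, 1 and 5 in KO1 Myc and KO2 Myc against WT Myc, and 13 in KO HU against WT HU. For WT HU against untreated, where 1 was called, there were 3 with the replicate block, with upper quartile scaling and at a minimum of 5 CPM, and 2 with RLE scaling and with halved counts. For KO HU against untreated there was 1 with the replicate block. DESeq2 called 4 in untreated KO against WT and 1 in KO HU against WT HU, where the replicate block and halved counts gave 8 each. The replicate block moved no other count by over 1.5 times, and since the numbers only name samples it is no paired result.

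Across the KO labels, chosen after seeing the data, 11 genes were called for KO2 Myc, and among genes called within labels values reversed for Psmd9 (−0.0931) and Psmd10 (−0.14) in KO1 Myc and Psmd9 (0.0946) in KO2 Myc. Leaving out each library gave 10 to 13 calls in KO1 Ctrl and 9 to 12 in KO2 Ctrl against WT Ctrl, 1 to 2 between the lines, 8 to 19 for WT Myc, 3 to 8 for KO1 Myc and 10 to 13 for KO2 Myc against Ctrl, 3 to 28 and 11 to 31 against WT Myc, and 5 to 15 and 4 to 17 in the interactions. In the HU experiment it gave 1 to 2 for HU in WT, 0 to 1 in KO, 3 to 6 untreated, 0 to 3 with HU and 0 in the interaction. Where a group was left with 1 library, that library is assumed to vary like the others. Groups of 2 and the lower depth of the HU experiment limit what could be called.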
